A study of Mus musculus with 8 samples.

Results

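Endothelial cells line the blood vessels of the brain, and their transcripts were followed here through RNA-seq libraries of isolated microglia, the resident macrophages of the brain. The 34 genes described were chosen by name as endothelial and blood-brain barrier genes, and all 34 were among the 55421 genes of the deposited count table. Every one of them passed the filter on low counts, which kept 22089 genes for testing. The libraries came from brains of 6-month-old C57BL/6 mice in 4 groups of 2 libraries: wild type and free of Alzheimer's disease (WT), Calhm2 conditional knockout and free of it (cKO), wild type with the disease (WT/AD), and conditional knockout with the disease (cKO/AD). The protein made from Calhm2 is an ion channel of the plasma membrane. The sources used here do not name the mouse model of the disease, the Cre driver or how many animals went into a library, and the p-values therefore reflect only how these libraries vary, a spread that could be technical. Nor do the sources used here say how the microglia were isolated.

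The endothelium of brain vessels forms the blood-brain barrier. Neighbouring cells are sealed by claudin-5, occludin and their scaffold proteins. Transfer through the cell is kept low by few caveolae and by the lipid transporter MFSD2A, while efflux pumps and carriers decide which small molecules cross. VEGF and angiopoietin receptors keep the cells alive and quiet, and the ETS factor ERG and the SOX factors SOX17 and SOX18 drive endothelial gene expression. Microglia lie beside these vessels and are not part of their lining. In bulk libraries, fewer cells of a type and less RNA per cell cannot be told apart.

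Library totals ranged from 18218165 to 25774587 counts. The first cKO/AD library stood apart. It had the fewest genes with a count, 18693, while the second had 22088 and the other groups had between 24342 and 25988, and the most counts from mitochondrially encoded genes, 4.73% where the others had 1.37% to 2.37%. Between the 2 libraries of a group, an endothelial gene differed by a median of 0.68 on the log2 scale in cKO/AD, against 0.20 for WT, 0.32 for cKO and 0.25 for WT/AD. In cKO/AD 14 of the 34 genes differed by more than 1 on that scale between the libraries, against 2, 3 and 2 in WT, cKO and WT/AD. Calhm2, the targeted gene, gave 216 and 239 counts for WT, 96 and 107 for cKO, 412 and 347 for WT/AD and 44 and 35 for cKO/AD, so both knockout groups stood below both others. The 10 listed microglial genes, among them P2ry12, Tmem119 and Csf1r, had counts in every library and summed to between 12420 and 35420 CPM (the reads of a gene relative to library size, scaled by trimmed mean of M values).

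Summed over the 34 genes, endothelial transcripts were highest in WT. The sum stood at 3097 and 3343 CPM for WT, 1118 and 1199 for cKO, 1737 and 1741 for WT/AD and 988 and 1282 for cKO/AD. The libraries of WT lay above those of every other group, those of WT/AD lay above both knockout groups, and the cKO values fell between the 2 cKO/AD values. These sums rest on 17393 to 66394 counts, or 0.0862% to 0.327% of a library. Cavin1 and Cd34 supplied 23.2% and 20.4% of the sum over the 8 libraries. Cd34 gave 277.9 and 280.1 CPM of it in cKO and 269.8 and 463.1 in cKO/AD. Gene by gene, the group mean was highest in WT for 30 of the 34 genes and lowest in cKO/AD for 24.

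**Figure D1:**
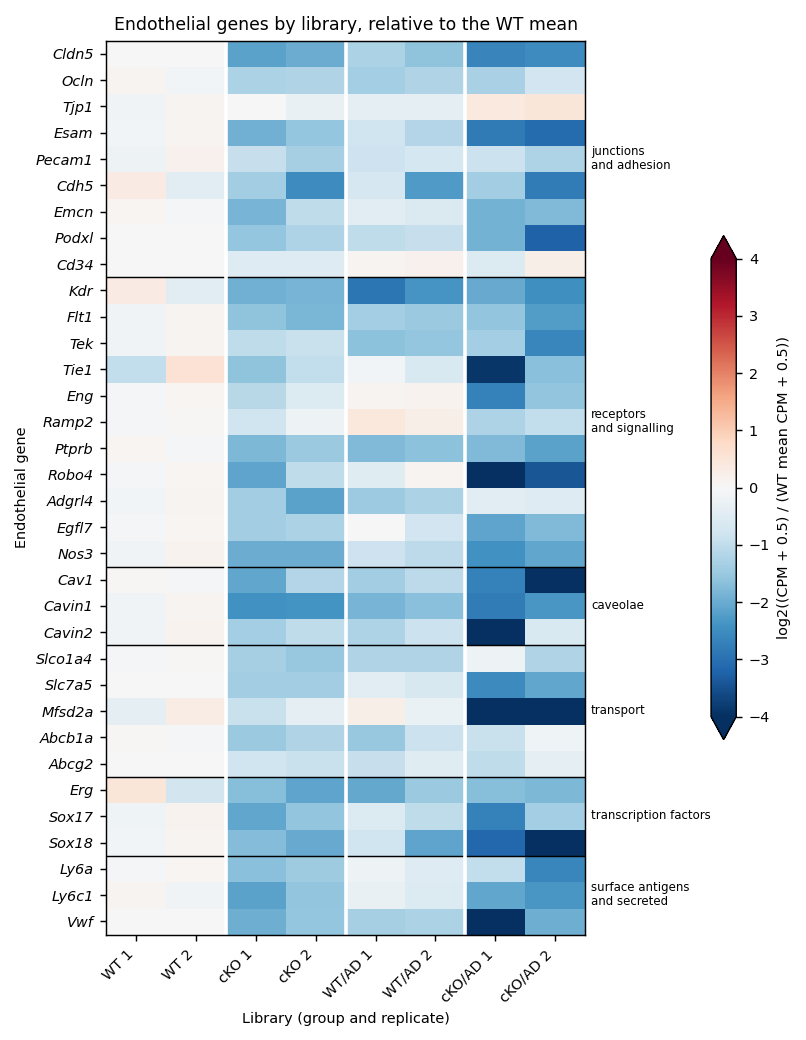
Level of each of the 34 endothelial genes (rows, by role) in each of the 8 libraries (columns), as log2 of CPM plus 0.5 relative to the WT mean plus 0.5; colours saturate at 4 in both directions. Most rows are blue in cKO, WT/AD and cKO/AD, and the 2 cKO/AD columns differ from each other most.

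Junction and adhesion genes had their highest means in WT, with Tjp1 and Cd34 as exceptions. Cldn5 (ENSMUSG00000041378.2), the claudin that seals brain vessels, stood at 230.2 and 230.5 CPM for WT, 52.3 and 58.01 for cKO, 94.7 and 75.1 for WT/AD and 36.7 and 40.1 for cKO/AD. No 2 groups overlapped for this gene, and the order was WT, WT/AD, cKO and cKO/AD. Esam, an adhesion molecule of the endothelial junction, stood at 59.8 and 68.6 CPM for WT, 16.5 and 21.5 for cKO, 36.5 and 27.95 for WT/AD and 8.69 and 7.14 for cKO/AD, in the same order and again without overlap. Pecam1, which encodes the adhesion molecule CD31, stood at 25.5 and 32.8 CPM for WT, 15.1 and 11.3 for cKO, 16.1 and 17.9 for WT/AD and 15.7 and 12.04 for cKO/AD. WT stood highest and WT/AD next, while cKO and cKO/AD overlapped. Cdh5, the cadherin of endothelial adherens junctions, stood at 21.5 and 12.7 CPM for WT, 6.29 and 2.59 for cKO, 10.6 and 3.13 for WT/AD and 6.25 and 2.05 for cKO/AD, with wide gaps between the libraries of each group. Emcn, a sialoprotein of the endothelial surface, stood at 28.2 and 25.3 CPM for WT, 6.99 and 12.9 for cKO, 19.99 and 17.6 for WT/AD and 6.93 and 7.45 for cKO/AD. Podxl, a sialomucin of the luminal membrane, stood at 56.8 and 56.2 CPM for WT, 19.02 and 23.6 for cKO, 27.9 and 29.3 for WT/AD and 14.8 and 5.53 for cKO/AD. Both genes were lower in each knockout group than in its control without overlap.

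Tjp1, the scaffold protein ZO-1 of tight junctions in endothelium and epithelium, went another way. It stood at 61.1 and 72.6 CPM for WT, 65.9 and 54.7 for cKO, 51.8 and 52.3 for WT/AD and 87.4 and 92.8 for cKO/AD, so its cKO/AD libraries were the highest of the 8. Cd34, a sialomucin of endothelium and blood progenitors, had mean levels of 397.8 ± 0.177 CPM for WT, 279 ± 1.56 for cKO, 436.2 ± 12.3 for WT/AD and 366.4 ± 137 for cKO/AD (SD, n = 2). Cd34 alone made up 20.4% of the summed endothelial signal over the 8 libraries, second to Cavin1 with 23.2%. Ocln, the tight junction protein occludin, had means of 56.8, 23.9, 23.1 and 27.98 CPM in WT, cKO, WT/AD and cKO/AD, with only the WT libraries apart.

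The caveolar genes also stood highest in WT. Cavin1 (ENSMUSG00000004044.9), a coat protein needed to form caveolae, stood at 928 and 1102 CPM for WT, 188.1 and 192.1 for cKO, 281 and 318 for WT/AD and 145.7 and 203 for cKO/AD. Its cKO mean was 18.7% of the WT mean and its WT/AD mean 29.5%, each with no overlap with WT. Cav1, the main caveolin of endothelium, had means of 14.1, 4.42, 5.79 and 0.992 CPM in WT, cKO, WT/AD and cKO/AD. Cavin2, another caveolar coat protein, was at 46, 19.96 and 22.2 CPM in WT, cKO and WT/AD. In cKO/AD it had 19 counts in the first library and 665 in the second, so its mean there describes neither. Caveolar genes took 31.8% and 34.9% of the summed endothelial signal in the WT libraries and between 15.04% and 20.07% in the other 6.

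Promoters are shown for Cldn5 and Cavin1 and for the other 2 genes with a RefSeq entry whose p-values in cKO against WT were smallest. Each run is the 250 bases before the RefSeq transcription start, on the strand of the gene and in build GRCm38.p6, and capitals mark matches to 1 of the 4 motifs named after the sequences.
Cldn5 promoter, chr16:18776597-18776846, plus strand: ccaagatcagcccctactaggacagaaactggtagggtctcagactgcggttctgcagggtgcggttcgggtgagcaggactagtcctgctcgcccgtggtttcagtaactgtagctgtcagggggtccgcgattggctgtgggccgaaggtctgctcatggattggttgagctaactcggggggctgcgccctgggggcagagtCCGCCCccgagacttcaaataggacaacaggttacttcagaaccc
Cavin1 promoter, chr11:100970618-100970867, minus strand: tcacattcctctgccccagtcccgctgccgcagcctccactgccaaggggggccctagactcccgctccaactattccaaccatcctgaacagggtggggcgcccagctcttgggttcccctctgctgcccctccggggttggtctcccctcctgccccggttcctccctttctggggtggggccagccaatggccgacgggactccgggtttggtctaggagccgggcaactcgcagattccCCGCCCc
Ly6c1 promoter, chr15:75048838-75049087, minus strand: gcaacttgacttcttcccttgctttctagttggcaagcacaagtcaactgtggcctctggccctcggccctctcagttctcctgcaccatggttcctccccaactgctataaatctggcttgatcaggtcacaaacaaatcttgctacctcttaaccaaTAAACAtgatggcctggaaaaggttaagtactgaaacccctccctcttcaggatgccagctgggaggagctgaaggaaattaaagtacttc
Flt1 promoter, chr5:147726012-147726261, minus strand: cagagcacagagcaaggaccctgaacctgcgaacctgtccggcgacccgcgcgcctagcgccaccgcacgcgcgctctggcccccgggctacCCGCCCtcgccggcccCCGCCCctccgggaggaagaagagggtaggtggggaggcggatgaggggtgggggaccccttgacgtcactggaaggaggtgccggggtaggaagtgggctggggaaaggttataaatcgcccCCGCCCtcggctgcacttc
The motifs searched on both strands were an ETS core (CCGGAAG), a SOX core (AACAAT), a FOX core (TGTTTA) and the GC box (GGGCGG). The capitals are a GC box on the opposite strand in Cldn5 and Cavin1, 3 such GC boxes in Flt1 and a FOX core on the opposite strand in Ly6c1. Of the 34 genes 22 had a promoter entry, and the first listed start of each gene was used. For Ly6c1, Abcb1a and Slco1a4 the bases after the start were not found at the opening of a GENCODE transcript of the gene, so these 3 starts are uncertain. A GC box was found in 8 of these 22 (36.4%), against 32.9% of 27025 RefSeq promoters of the same length. A SOX core was found in 4, those of Cavin2, Emcn, Slco1a4 and Tek, against 9.65% of all promoters, and a FOX core in 3, those of Abcb1a, Ly6c1 and Slco1a4, against 12% of all, so every FOX match lies before an uncertain start. The ETS core was in 0 of the 22 windows and in 7.05% of all. A match is a run of letters and not a shown binding site, and no match says only that these letters are not in the window.

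Receptors of vessel growth factors split by how they stood in WT/AD. Kdr (ENSMUSG00000062960.10), the main VEGF receptor, stood at 53.5 and 30.8 CPM for WT, 10.7 and 11.2 for cKO, 5.21 and 7.88 for WT/AD and 10.05 and 7.36 for cKO/AD. Flt1, a high-affinity VEGF receptor that limits signalling, stood at 152.6 and 182.3 CPM for WT, 54.5 and 46.8 for cKO, 64.5 and 59.2 for WT/AD and 55.8 and 34.97 for cKO/AD. Tek, the angiopoietin receptor TIE2, stood at 14.1 and 16.8 CPM for WT, 7.38 and 8.07 for cKO, 4.57 and 4.95 for WT/AD and 5.73 and 2.1 for cKO/AD. For these 3 receptors, and for Ptprb, the phosphatase that restrains TIE2 signalling, WT stood clear of all other groups. Ptprb means were 112.7, 35.8, 34.2 and 29.3 CPM in WT, cKO, WT/AD and cKO/AD.

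Eng and Ramp2 were not low in WT/AD. Eng, the TGF-beta co-receptor endoglin, stood at 160 and 176.5 CPM for WT, 77.2 and 114.1 for cKO, 183.1 and 185.7 for WT/AD and 25.4 and 56.1 for cKO/AD. Ramp2, the co-receptor for adrenomedullin, stood at 11.5 and 12.5 CPM for WT, 6.64 and 10.4 for cKO, 16.2 and 14.3 for WT/AD and 4.83 and 5.84 for cKO/AD. Both had their highest libraries in WT/AD and their lowest in cKO/AD. Robo4, a guidance receptor that stabilises vessels, stood at 29.03 and 32.1 CPM for WT, 6.74 and 14.8 for cKO, 21.7 and 32.7 for WT/AD and 0.0568 and 2.41 for cKO/AD. Its counts in cKO/AD were 1 and 54, against 545 and 825 in WT/AD. Egfl7, a secreted matrix factor of vessels, stood at 20.2 and 22.5 CPM for WT, 7.83 and 8.56 for cKO, 21.1 and 12.5 for WT/AD and 4.6 and 5.93 for cKO/AD.

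The remaining signalling genes were lower in cKO than in WT without overlap. Tie1, an orphan receptor that works with TIE2, had means of 13.6, 5.33, 10.7 and 2.17 CPM in WT, cKO, WT/AD and cKO/AD. Its WT libraries were far apart at 6.6 and 20.5 CPM, and the lower lay just above the cKO libraries at 4.11 and 6.54. Nos3, the endothelial nitric oxide synthase, had means of 9.12, 1.93, 4.5 and 1.55 CPM in WT, cKO, WT/AD and cKO/AD. Adgrl4, an adhesion receptor of endothelium, was at 60.5, 18.1, 23.4 and 43.05 CPM, so its cKO/AD mean lay above those of cKO and WT/AD.

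Carriers and pumps of the barrier also divided in cKO/AD. Slco1a4, an organic anion transporter of brain endothelium, stood at 81.4 and 88.4 CPM for WT, 33.3 and 29.7 for cKO, 36.6 and 36.9 for WT/AD and 74.4 and 36.2 for cKO/AD. Abcb1a, the efflux pump P-glycoprotein, stood at 47.9 and 44.5 CPM for WT, 16.1 and 19.7 for cKO, 15.7 and 25.1 for WT/AD and 24.6 and 41 for cKO/AD. Abcg2, another efflux pump, had means of 69.4, 38.4, 42.9 and 43.95 CPM in WT, cKO, WT/AD and cKO/AD. For these 3 the cKO/AD libraries overlapped those of WT/AD. Slc7a5, the large neutral amino acid carrier, stood at 91.4 and 87.8 CPM for WT, 33.9 and 33.7 for cKO, 65.5 and 57.3 for WT/AD and 14.99 and 20.6 for cKO/AD. Mfsd2a (ENSMUSG00000028655.11), the transporter that carries docosahexaenoic acid as a lysolipid and suppresses transcytosis, stood at 22.4 and 36.3 CPM for WT, 15.6 and 22.99 for cKO, 34.3 and 24.4 for WT/AD and 0.511 and 1.16 for cKO/AD. Its counts in cKO/AD were 9 and 26, against at least 315 in each of the other 6 libraries.

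The endothelial transcription factors and surface antigens were highest in WT. Sox17 had means of 35.8, 9.9, 20.9 and 9.33 CPM in WT, cKO, WT/AD and cKO/AD, and Sox18 of 42.2, 11.2, 16.7 and 2.45 CPM. Erg was the least abundant of the 34 genes, with 104 and 36 counts in WT and 9 to 22 counts in each other library. Ly6c1 (ENSMUSG00000079018.10), a surface antigen of brain endothelium and of inflammatory monocytes, stood at 97.5 and 81.8 CPM for WT, 20.2 and 29.8 for cKO, 72.7 and 61.2 for WT/AD and 20.9 and 17.4 for cKO/AD. Ly6c2 is nearly identical to Ly6c1 and reads could be split between them, so the Ly6c1 values are uncertain. Ly6c2, looked up after the Ly6c1 values were seen, had 144 to 204 counts in 7 libraries and 1 in the first cKO/AD library. Ly6a, the stem cell antigen Sca-1, was at 10.5, 3.28, 8.13 and 3.17 CPM in WT, cKO, WT/AD and cKO/AD. Vwf, the clotting factor made by endothelium, was at 45.9, 13.4 and 18.6 CPM in WT, cKO and WT/AD. It had 3 and 259 counts in the 2 cKO/AD libraries.

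**Figure D2:**
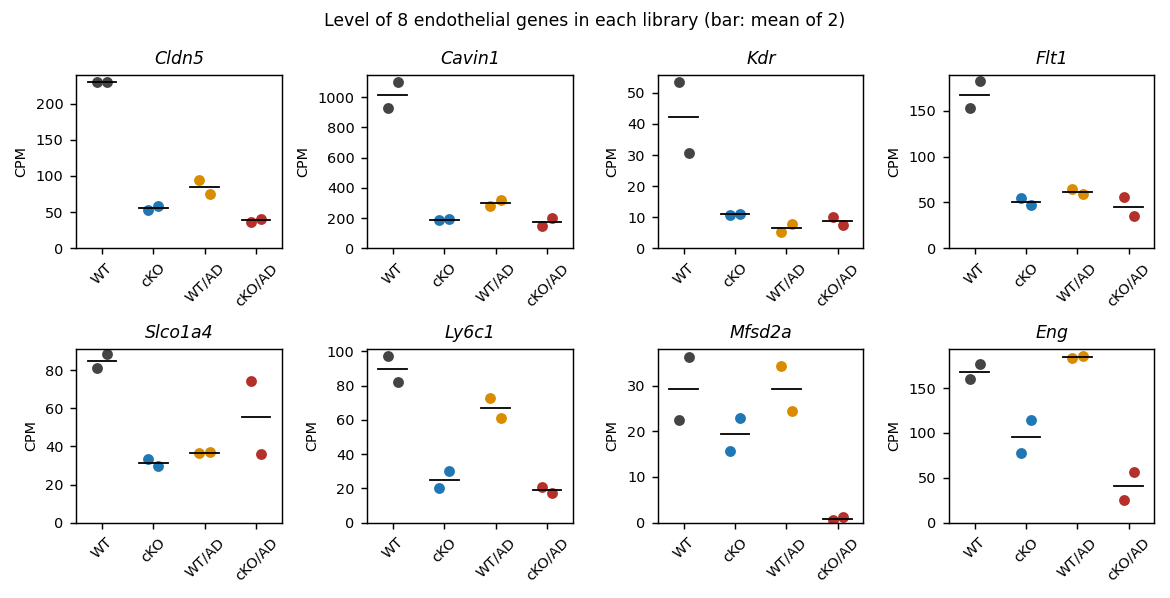
CPM of 8 endothelial genes in each library (points) with the mean of the 2 libraries of a group (bars); every axis starts at 0. Cldn5, Cavin1, Kdr and Flt1 are highest in WT, while Mfsd2a and Eng are lowest in cKO/AD.

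Set per kilobase of exon, the levels of the 34 genes spanned a wide range. In WT, Cavin1 was highest at 283 CPM per kilobase, then Cldn5 at 162.7, Cd34 at 54.6, Ly6c1 at 53.5 and Eng at 41.6, and Erg was lowest at 0.974. In cKO the order opened with Cavin1 at 53 CPM per kilobase, Cldn5 at 38.96 and Cd34 at 38.3. In cKO/AD Cd34 stood at 50.3 and Cavin1 at 48.6 CPM per kilobase, with overlapping libraries, and Cldn5 at 27.1.

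Setting cKO against WT asked what goes with Calhm2 deletion in mice without the disease. All 34 endothelial genes had a negative log2 fold change, with a median of -1.47 against -0.02 over all tested genes. In 32 of the 34, both cKO libraries lay below both WT libraries, where 26% of all tested genes did so. The exceptions were Tjp1 and Mfsd2a. The edgeR quasi-likelihood test with Benjamini-Hochberg adjustment called 0 of the 34 lower and 0 higher, beside a background of 0% of all genes called in either direction. At an unadjusted p under 0.05 there were 23 of the 34, against 1596 of 22089 genes. The smallest p-values were those of Cavin1 (log2 fold change -2.42, SE 0.224) and Cldn5 (-2.06, SE 0.201), both with an edgeR adjusted p of 0.0548. Ly6c1, Ptprb and Flt1 had log2 fold changes of -1.84, -1.66 and -1.73, each with an edgeR adjusted p of 0.2.

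The number of calls in this comparison changed with the setting. DESeq2 called 14 of the 34 lower and 0 higher, and 150 and 118 over all genes. Its lower calls included Cldn5, Kdr, Flt1, Cavin1 and Slco1a4. edgeR called 16 lower with the 4 libraries of cKO and WT alone, 18 when cKO/AD replicate 1 was left out and 17 when cKO/AD replicate 2 was, beside 146, 198 and 214 of all genes.

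Setting WT/AD against WT asked what goes with the disease when Calhm2 is intact. Of the 34 genes 31 had a negative log2 fold change, with a median of -1.01 against 0 over all tested genes. Both WT/AD libraries lay below both WT libraries in 27 genes, against a background of 25.9%, and above them in 3, Cd34, Eng and Ramp2, against 26.5%. The edgeR test called 0 lower (background 0.0136%) and 0 higher (background 0.0317%, and 0.0453% in either direction), with 14 of the 34 at an unadjusted p under 0.05, against 1986 of 22089 genes. Kdr had the most negative value (log2 fold change -2.69, SE 0.425, edgeR adjusted p = 0.14). Cavin1 and Cldn5 had log2 fold changes of -1.76 (SE 0.219) and -1.44 (SE 0.197), with edgeR adjusted p-values of 0.0704 and 0.0928. DESeq2 called 10 lower, and edgeR called 15 in a fit of the 4 WT and WT/AD libraries alone and 14 without either cKO/AD library. Over all genes DESeq2 called 256 lower, the 2-group fit 662, and the fits without cKO/AD replicate 1 or 2 called 408 and 412. Both this comparison and that of cKO with WT use the same WT libraries, so their values are not independent of each other. Side by side, Mfsd2a was at -0.001 in WT/AD and -0.60 in cKO against WT, Ly6c1 at -0.42 and -1.84, Eng at 0.13 and -0.81, and Kdr at -2.69 and -1.95.

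**Figure D3:**
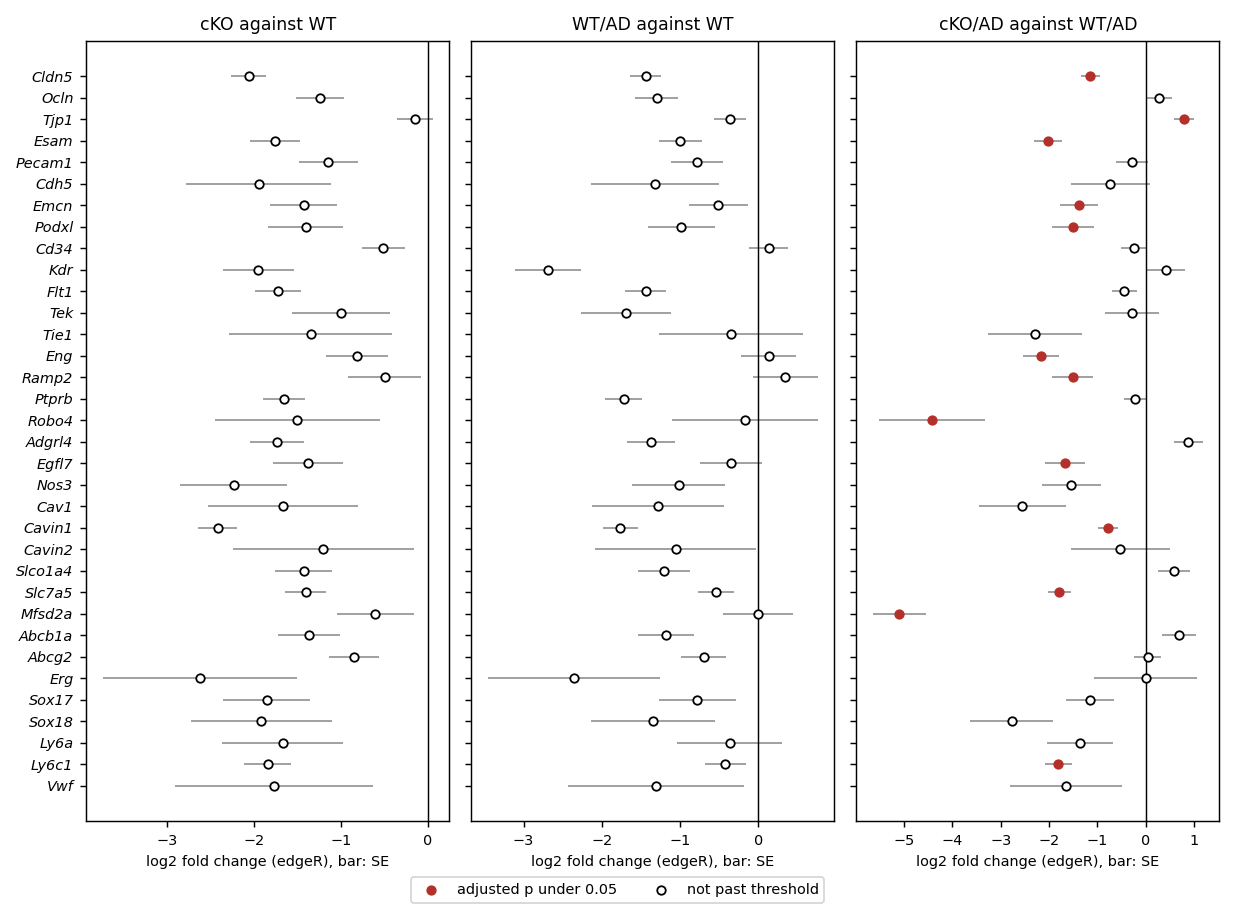
log2 fold change of each endothelial gene in cKO against WT, WT/AD against WT and cKO/AD against WT/AD, with standard errors as bars; filled points passed an edgeR adjusted p of 0.05. No point is filled in the first 2 panels, and 13 are in the last, 12 of them to the left of 0.

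Setting cKO/AD against WT/AD asked what goes with Calhm2 deletion in mice with the disease. Here 12 of the 34 endothelial genes fell and 1 rose by edgeR, beside a background of 10.2% of all genes called lower and 7.82% called higher. The junction and surface genes Cldn5, Esam, Emcn and Podxl fell, as did the signalling genes Eng, Ramp2, Robo4 and Egfl7, the caveolar gene Cavin1, the transporters Slc7a5 and Mfsd2a, and Ly6c1. Tjp1 rose. Mfsd2a had the most negative log2 fold change, -5.1 (SE 0.547, edgeR adjusted p = 0.00635), then Robo4 with -4.42 (SE 1.09, edgeR adjusted p = 0.0295). Eng, Esam, Ly6c1 and Slc7a5 had log2 fold changes between -2.18 and -1.79 with edgeR adjusted p-values between 0.00679 and 0.01. Cldn5 fell by 1.14 (SE 0.196) and Cavin1 fell by 0.78 (SE 0.214) on the log2 scale, and Tjp1 rose by 0.79 (SE 0.204, edgeR adjusted p = 0.0335). The median of the 34 was -1.15 against -0.14 over all tested genes. Both cKO/AD libraries lay below both WT/AD libraries in 21 genes, against a background of 35.1%, and above them in 2, against 24.3%. The VEGF receptors Kdr and Flt1 (edgeR adjusted p = 0.513 and 0.26), Pecam1 (0.576), Cdh5 (0.567), Slco1a4 (0.243) and Abcb1a (0.211) did not pass.

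Of these 13 calls, edgeR kept 0 without WT/AD replicate 1 and 0 with the 4 libraries of the 2 groups alone. It kept 5 without WT/AD replicate 2, and 6 without either WT library or either cKO library, those of Cldn5, Esam, Eng, Slc7a5, Mfsd2a and Ly6c1. It kept 12 when cKO/AD replicate 1 was left out and 13 when cKO/AD replicate 2 was, where it called 15 and 20 of the 34 lower beside 3109 and 6164 of all genes.

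In cKO/AD against WT/AD, whether an endothelial gene was lower went along with the GC content of its transcripts. The 34 genes ran from 40.2% GC in Slco1a4 to 60.9% in Sox18, with a median of 50.8%. All 17 genes above that median had a negative log2 fold change, and 10 of them fell. Of the 17 below it 10 were negative and 2, Emcn and Ly6c1, fell. Among all tested genes, 6979 of 8753 above that GC content were negative and 1970 were called lower. At or below it 4832 of 13308 were negative and 281 were called lower. The medians were -1.65 in the GC-rich and -0.25 in the GC-poor genes, beside -1.02 and 0.38 over all tested genes split at the same GC content. Across the 34 genes Pearson's r between log2 fold change and GC content was -0.604, and across 22061 tested genes -0.324; genes share libraries and are not independent replicates. In cKO against WT the 2 medians of the endothelial genes were -1.76 and -1.43, with 17 of 17 genes negative in each class (r = -0.282). Among all tested genes 5359 of 8753 and 5962 of 13308 were negative there.

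With each library corrected for GC content, edgeR kept 3 of the 13 calls, those of Mfsd2a, Ly6c1 and Emcn. Their log2 fold changes were then -4.08 (SE 0.427, edgeR adjusted p = 0.0169), -1.7 (SE 0.297, adjusted p = 0.0277) and -2.12 (SE 0.429, adjusted p = 0.0357). Cavin1 turned to 1.03 and was then called higher (edgeR adjusted p = 0.0404). Cldn5 turned to 1.11 (edgeR adjusted p = 0.055) and Egfl7 to 0.04 (adjusted p = 0.972). The corrected fold changes of Slc7a5, Eng and Esam were -0.35, -0.61 and -1 (edgeR adjusted p = 0.371, 0.105 and 0.129). The corrected median of the 34 was -0.33 in this comparison and -1.56 in cKO against WT. In WT/AD against WT the corrected median was -0.99 and Cavin1 was called lower (log2 fold change -2.23, SE 0.229, edgeR adjusted p = 0.0189).

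**Figure D4:**
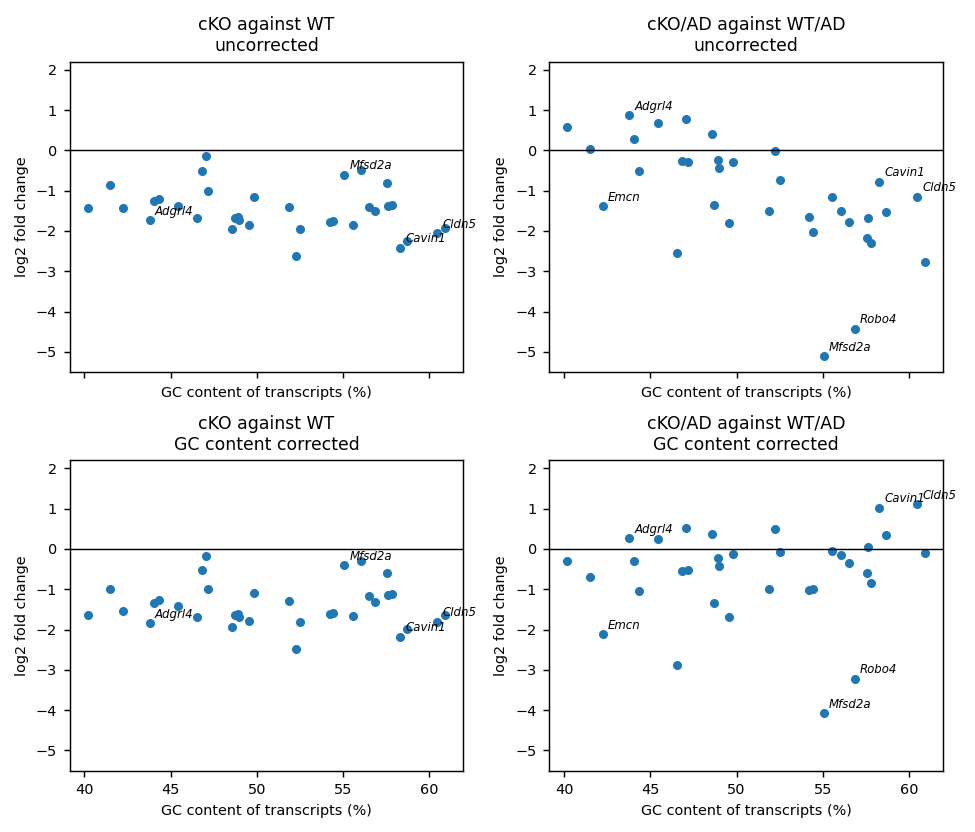
log2 fold change of the 34 endothelial genes against the GC content of their transcripts, for cKO against WT (left) and cKO/AD against WT/AD (right), before (top) and after (bottom) correction of each library for GC content. The downward slope of the top right panel (r = -0.604) is not seen in the bottom right (r = 0.11), where Mfsd2a and Robo4 lie lowest and Cldn5 and Cavin1 lie above 0.

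In cKO/AD against cKO, which compares the disease groups within the knockout, 1 of the 34 genes fell and 0 rose by edgeR (background 0.154% and 0.0634%, together 0.217%). That gene was Mfsd2a, with a log2 fold change of -4.5 (SE 0.535, edgeR adjusted p = 0.0338), and with GC content corrected it was at -3.92 (SE 0.425, edgeR adjusted p = 0.0272). The call was kept without either cKO/AD library and lost without any 1 of the other 6 libraries and with the 4 libraries of the 2 groups alone. The median of the 34 was -0.35 against -0.13 over all tested genes. Both cKO/AD libraries lay below both cKO libraries in 15 genes (background 31.1%) and above them in 4, Tjp1, Adgrl4, Slco1a4 and Abcb1a (background 20.3%). DESeq2 called 5 lower and 2 higher, and 1873 and 1406 over all genes.

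The interaction asked whether the knockout difference was the same with and without the disease. edgeR called 0 of the 34 genes in either direction, beside backgrounds of 0.0181% lower and 0.00905% higher. At an unadjusted p under 0.05 there were 12 of the 34, against 4846 of 22089 genes. The smallest adjusted p was that of Mfsd2a (difference of log2 fold changes -4.5, SE 0.68, edgeR adjusted p = 0.0518), then Adgrl4 (2.62, SE 0.43, adjusted p = 0.0556) and Cavin1 (1.64, SE 0.303, adjusted p = 0.0577). Leaving out cKO/AD replicate 1 gave 3 lower and 10 higher by edgeR, and leaving out cKO/AD replicate 2 gave 6 lower and 10 higher. Over all genes those fits called 1643 lower and 945 higher, and 5034 lower and 2685 higher. DESeq2 called 1 of the 34 lower and 10 higher, and 1533 and 1214 over all genes. With GC content corrected Cavin1 was called higher (3.2, SE 0.318, edgeR adjusted p = 0.0384).

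Some lists of other cell types were, like the endothelial genes, lower in sum outside WT, and others were not. The 12 pericyte and smooth muscle genes summed to 1126 and 1144 CPM for WT, 373.2 and 336.1 for cKO, 440.1 and 496.7 for WT/AD and 160.7 and 390.3 for cKO/AD. Rgs5 alone had means of 715.6, 164, 140.1 and 155.6 CPM in these groups. The summed level of 10 astrocyte genes was between 1232 and 1353 CPM in WT and between 690.1 and 986.4 CPM in the other groups. That of 7 neutrophil genes was between 2829 and 2929 CPM in WT and between 987.6 and 1424 CPM elsewhere. Most of the neutrophil sum in WT was from Ngp and Ltf, with means of 1793 and 865 CPM. The 10 microglial genes summed to 32050 and 35420 CPM for WT, 19160 and 22440 for cKO, 25240 and 26500 for WT/AD and 12420 and 17200 for cKO/AD. The 10 neuron genes lay between 1538 and 2147 CPM and the 8 oligodendrocyte genes between 4422 and 9780 CPM, with the highest oligodendrocyte values in cKO/AD. Fibroblast (8 genes), choroid plexus (5 genes) and erythrocyte (5 genes) lists summed to between 135.7 and 254.9, 25.4 and 71.4, and 4.82 and 19.02 CPM. In cKO against WT the medians were -1.21 over 11 tested pericyte and smooth muscle genes, -0.88 over 10 astrocyte genes, -0.86 over 7 neutrophil genes and -0.52 over 10 microglial genes, with 0 called in each. The neuron, oligodendrocyte and erythrocyte medians were 0.18, 0.12 and 0.96 in that comparison, and the fibroblast and choroid plexus medians were -0.80 and -0.65. In WT/AD against WT the pericyte and smooth muscle median was -0.34, with 7 genes negative and 4 positive. The astrocyte, neutrophil and microglial medians there were -0.46, -1.02 and -0.18, with 0 called in each. In cKO/AD against WT/AD, beside the background of 10.2% lower and 7.82% higher, 3 of 11 tested pericyte and smooth muscle genes fell (median -1.51) and 3 of 10 microglial genes fell (median -0.46). Of 8 oligodendrocyte genes 5 fell and 1 rose (median -1.21), although their sum was highest in cKO/AD. Of 10 neuron genes 2 fell and 1 rose (median -0.39), and of 10 astrocyte genes 0 were called (median 0.075). The fibroblast, choroid plexus and neutrophil lists had 1 lower call each, with medians of 0.17, -0.49 and -0.46, and the erythrocyte list had 0 of 3 tested genes called (median -1.36). These list calls are without the GC correction, which took the lower calls over all genes in cKO/AD against WT/AD from 2252 to 470. None of the genes in these lists of other cell types had 0 counts in all libraries. Among these lists, the most genes at 0 in 1 library were 3 of the erythrocyte list. Their part in the endothelial result was not tested.

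Per 1000 CPM of the 10 microglial genes, the endothelial sum was 96.6 and 94.4 CPM for WT, 58.4 and 53.4 for cKO, 68.8 and 65.7 for WT/AD and 79.5 and 74.5 for cKO/AD. On this scale no 2 groups overlapped, WT was highest and cKO lowest. How far the place of cKO/AD depends on Cd34 or on the microglial genes was not tested. Cd34 alone gave 269.8 and 463.1 CPM of the cKO/AD sums of 987.5 and 1282, and 427.5 and 444.9 of 1737 and 1741 in WT/AD. The microglial sum was lowest in cKO/AD, at 12420 and 17200 CPM, and its gene Tmem119 had 24101 and 82873 counts there.

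**Figure D5:**
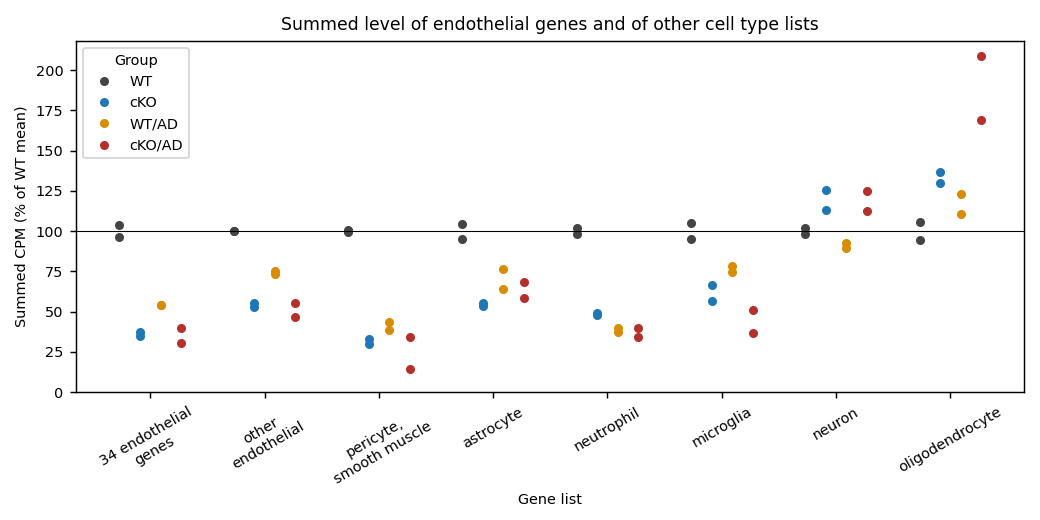
Summed CPM of the 34 endothelial genes and of 7 other gene lists in each library, as a percentage of the WT mean of the list. Endothelial, pericyte, astrocyte, neutrophil and microglial sums lie below 100% in every library outside WT, and oligodendrocyte sums lie above it.

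Other endothelial genes, from a list of 41 that holds none of the 34, had a median log2 fold change of -0.99 in cKO against WT, with 38 of 41 negative and 0 called. That list, like the 34, was chosen with earlier results of these data known. In the first cKO/AD library 6 of its 41 genes had 0 counts. In WT/AD against WT the median was -0.59 with 0 called. In cKO/AD against WT/AD it was -0.74, with 8 that fell and 1 that rose, beside a background of 10.2% and 7.82%. Itm2a, a membrane protein gene enriched in brain endothelium, had means of 508.4, 185.2, 208.1 and 189.9 CPM in WT, cKO, WT/AD and cKO/AD. Pltp, a phospholipid transfer protein gene, fell from 64.2 ± 10.9 to 9.82 ± 1.69 CPM in cKO/AD (log2 fold change -2.71, edgeR adjusted p = 0.00642), and its log2 fold change was -1.01 with GC content corrected (edgeR adjusted p = 0.0768). Ets1, an ETS factor of endothelium and lymphocytes, rose from 121.3 ± 25.2 to 363.4 ± 23.1 CPM (1.58, edgeR adjusted p = 0.00642, and 1.38 with GC content corrected, adjusted p = 0.02). Gja4, the arterial connexin 37, fell from 536 counts in WT/AD to 3 in cKO/AD, a ratio of 142 with an exact 95% interval of 48.3 to 690 for counting error only.

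Lists of vessel signalling genes are read beside the same background of 10.2% lower and 7.82% higher in cKO/AD against WT/AD. Of 10 VEGF and angiopoietin genes 1 fell in cKO/AD against WT/AD and 0 were called in the other 4 comparisons. That gene was the lymphatic growth factor Vegfc, with 126 counts in WT/AD and 1 in cKO/AD, a ratio of 100 with an exact 95% interval of 17.6 to 3980. Vegfa, the main ligand of Kdr, had means of 3.38, 6.04, 9.4 and 4.41 CPM in WT, cKO, WT/AD and cKO/AD and was not called. Of 8 Notch genes 3 fell and 1 rose in the same comparison. The ligand gene Dll4 had 97 counts in WT/AD and 0 in cKO/AD, at least 25.7-fold lower when the group's 0 is set to the floor of 3 counts. The receptor genes Notch1 and Notch4 fell by 2.05 and 1.82 on the log2 scale (edgeR adjusted p = 0.0459 and 0.0468), which became -0.71 and 0.49 with GC content corrected (adjusted p = 0.386 and 0.521). The ephrin gene Efnb2 rose by 1.72 (edgeR adjusted p = 0.0471). Of 15 Norrin and Wnt genes, which induce the barrier, 1 rose and 1 fell. The Norrin co-receptor gene Tspan12 rose from 11.5 ± 0.0263 to 28.8 ± 11.8 CPM and Adgra2, the Wnt7 co-receptor gene, fell from 16.8 ± 2 to 3.73 ± 3 CPM, and neither call was kept with GC content corrected (edgeR adjusted p = 0.218 and 0.924).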

How the data were processed

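RNA of microglia isolated from mouse brain was extracted with Trizol and made into Illumina TruSeq libraries, per the labels' protocols. The authors deposited whole-number read counts per gene for 8 libraries, not normalised, with Ensembl identifiers and symbols. The submitters' processing notes name the build mm9. No source used here gives the aligner, counter or strand setting, so reads of overlapping or antisense genes cannot be told apart. There were 0 unused columns. Group and replicate came from the source name of each sample.

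The test was that of edgeR 4.0.16 in R 4.3.3 (filterByExpr by group, TMM scaling, glmQLFit and glmQLFTest, two-sided) in 1 group means model over the 8 libraries with 4 residual degrees of freedom. P-values were adjusted by Benjamini-Hochberg over 22089 genes, with a threshold of 0.05. Levels are CPM, as library values or mean ± SD (n = 2). The SE of an edgeR log2 fold change was derived from the test, as its absolute value over the square root of the quasi-likelihood F statistic. An exact test over samples with 2 against 2 libraries was not used for single values. GC content is the length-weighted mean over GENCODE M21 transcripts and length the union of exons; 99.87% of tested genes and all 34 endothelial genes had a value. M21 is on a later build than mm9, so promoter coordinates are those of RefSeq and not of the counts. The GC correction used as offset, for each library, a loess fit (span 0.4) on GC content of its difference from mean log2 CPM (prior count 2, genes above a mean log2 CPM of 2). Differences between replicates on the log2 scale used a pseudocount of 0.5 counts.

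The alternatives were DESeq2 1.42.0, its size factors in edgeR, no filter, a fit of just the 2 groups, the replicate number as a block, the GC correction alone and with that block, and leaving out each library. The test of cKO against WT was tried on simulated data with known changes. The members and lists were chosen with earlier results of these data known. Library values are printed for every endothelial gene past the threshold in any comparison and for 10 defining genes, other members by group mean, and at most 4 genes from each further list of vessel genes, those with the smallest p. Intervals and floors cover counting error only. Protein sequences were not used here.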

Additional observations from a re-analysis of the deposited data

How the results depend on the processing

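The median log2 fold change of the 34 endothelial genes moved by less than the spread between replicates (0.145 on the log2 scale) under the alternatives that leave out no single library (7, of which a fit of 2 groups could not be made for the interaction), with these exceptions: the GC correction, alone and with the replicate block, in cKO/AD against WT/AD (-0.33 and -0.40) and against cKO (-0.061 and -0.1), and the replicate block in the interaction (0.41 in place of 0.69). Over the 8 fits that leave out 1 library the median ranged from -1.03 to -0.88 in WT/AD against WT, -1.6 to -1.39 in cKO against WT, -1.37 to -0.89 in cKO/AD against WT/AD, -0.49 to -0.28 in cKO/AD against cKO and 0.45 to 0.80 in the interaction. Counts of endothelial genes called depended more on the setting. With DESeq2, 10, 14, 5 and 1 were lower in WT/AD and in cKO against WT, in cKO/AD against cKO and in the interaction, and 2, 2 and 10 were higher in cKO/AD against WT/AD, against cKO and in the interaction. Without a filter 8, 13, 6 and 3 were lower in the first order, and 1 and 8 higher in cKO/AD against cKO and the interaction. That fit called 129, 92, 1934 and 1600 of all genes lower, and 1123 and 1070 higher, in the same comparisons. With only the 2 groups compared 15 and 16 were lower in the 2 comparisons with WT, and 0 were lower and 0 higher in cKO/AD against WT/AD and 0 lower in cKO/AD against cKO. DESeq2 size factors gave 1 lower in cKO against WT, beside 2 of all genes. The GC correction gave 1 lower in WT/AD against WT, 3 lower in cKO/AD against WT/AD and 1 higher in the interaction, and with the replicate block 1 lower, 4 lower and, in cKO/AD against WT/AD, 0 higher. The matching counts over all genes were 7 lower, 470 lower and 4 higher, and with the block 6 lower, 338 lower and 656 higher. Leaving out 1 library gave between 0 and 14 lower in WT/AD against WT, 0 and 18 in cKO against WT, 0 and 20 in cKO/AD against WT/AD, 0 and 8 in cKO/AD against cKO and 0 and 6 in the interaction, and between 0 and 3, 0 and 2, and 0 and 10 higher in the last 3. For the 4 comparisons of groups, the counts were highest without a cKO/AD library. The calls over all genes, lower and higher, were also highest without a cKO/AD library, in these comparisons and in the interaction. The ranges of endothelial calls therefore cannot be read as particular to the endothelial genes.

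Some single genes changed sign. In cKO/AD against WT/AD, Cldn5, Egfl7 and Cavin1 went to 1.11, 0.042 and 1.03 with GC content corrected and to 1.07, 0.048 and 1.02 with the replicate block added. In the interaction Cavin2 went to -3.15 without cKO/AD replicate 2 and 1.62 without replicate 1, and Vwf to -4.95 and 1.08. The construction of that fit leaves the first cKO/AD library, with 19 and 3 counts of these genes. Over all genes, edgeR called 2252 lower and 1728 higher in cKO/AD against WT/AD, 470 and 781 with GC content corrected, 3493 and 2899 by DESeq2 and 0 and 0 with the 2 groups alone. In cKO against WT it called 0 and 0, DESeq2 150 and 118, and the 2 groups alone 146 and 56. In WT/AD against WT it called 3 and 7, DESeq2 256 and 275, and the 2 groups alone 662 and 771. In cKO/AD against cKO it called 34 and 14, and DESeq2 1873 and 1406. In the interaction it called 4 and 2, and DESeq2 1533 and 1214. Deviations of same-numbered libraries from their group means correlated at -0.033 to 0.061 between groups. These values cannot show whether the samples were paired, because a weak shared shift could give them too. With the replicate block alone 10 endothelial genes were lower and 1 higher in cKO/AD against WT/AD, beside 2086 and 1513 of all genes. In that fit 10 of the 13 calls were kept. The cause of these changes was not tested. Genes with few counts, such as Erg, Nos3 and Cav1, give little precision at this depth.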

Other observations

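Abcb1b, the second P-glycoprotein gene of the mouse, is similar in sequence to Abcb1a and was looked up after the Abcb1a values were seen. It stood at 17.4 and 16.3 CPM for WT, 14.96 and 15.1 for cKO, 21.6 and 19.3 for WT/AD and 37.1 and 19.4 for cKO/AD. Its WT libraries were not the highest, unlike those of Abcb1a at 47.9 and 44.5 CPM.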
